A study of Mus musculus with 12 samples.

Results

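The genes described here are 10 markers of neuronal differentiation, chosen by name from the 21563 genes of the authors' comparison of 2 embryonic mouse tissues. They are Dcx, Tubb3, Elavl3, Elavl4, Stmn2, Neurog1, Neurog2, Neurod1, Olig2 and Nes, and all 10 had a row. The tissues were the heart tube (HT) and the posterior second heart field (pSHF), the mesoderm behind the heart that adds cells to its inflow end, each with 6 poly-A RNA libraries. Both came from wild-type CD1 embryos at E10.0, midgestation, and the labels record that the tissues were dissected together from an embryo and name no transgene or treatment for either group. Whether a library held 1 embryo or several is not in the labels, and the p-values below speak only of variation among these 12 libraries, which may be technical. In bulk tissue, fewer cells of a type and less RNA per cell cannot be told apart.

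In a cell that becomes a neuron, proneural transcription factors of the basic helix-loop-helix (bHLH) family, such as Neurog1 and Neurog2, switch on later bHLH factors such as Neurod1 while Notch signalling holds neighbouring cells back. The new neuron then makes its own cytoskeleton and RNA-binding proteins, among them doublecortin (Dcx), the neuronal tubulin Tubb3, the stathmin Stmn2 and the Hu proteins Elavl3 and Elavl4. Nestin (Nes) is an intermediate filament of neural progenitors that is also made by embryonic muscle and by endothelium, and Olig2 marks the spinal progenitors of motor neurons and oligodendrocytes. The heart and the tissue behind it hold no central neurons, but neural crest cells that form the cardiac and enteric ganglia pass through the region.

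Enough signal for a test was found for 6 of the members, and these 6 were all lower in HT than in pSHF. The difference ran from Dcx, with a log2 fold change (log2FC, HT over pSHF) of -5.13, through Stmn2 (-2.09), Elavl3 (-1.73), Elavl4 (-1.12) and Tubb3 (-0.43), to Nes (-0.19). The other 4 members, the bHLH genes Neurog1, Neurog2, Neurod1 and Olig2, were at 0 in every HT library and at or near 0 in pSHF, where nearly all of their signal lay in 1 library, coded MR15. The values are the authors' normalized gene counts, and the test was limma on log2(normalized gene count + 1) over 14909 genes, with Benjamini-Hochberg adjustment and a threshold of 0.05. Of those genes, 38.3% were called higher in HT, 40.0% higher in pSHF and 78.3% in either direction, so a call alone does not set a gene apart here. With libraries scaled to equal totals the split was 26.2% higher in HT and 54.8% higher in pSHF. The filter asked for a mean of at least 5 normalized counts, which each of the 6 reached in both tissues. The median log2 fold change was -1.43 over the 6 tested members and -0.02 over all genes tested.

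The promoters of 4 members are printed first, because they cover the neuronal cytoskeleton genes with the largest and the smallest difference (Dcx and Tubb3), the Hu gene that varied the most in pSHF (Elavl3) and a bHLH factor seen in few reads (Neurod1). Each runs from 250 bases before to 50 bases after the annotated RefSeq start on GRCm38.p6, read 5′ to 3′ on the gene's strand. Capitals mark the E-box CANNTG, the site class bound by bHLH factors, and the left part CAGCACC and right part GGACAG of the element bound by Rest, a repressor of neuronal genes, searched on both strands. The windows lie at chrX:143933170-143933469 on the minus strand (Dcx), chr8:123411303-123411602 on the plus strand (Tubb3), chr9:22051974-22052273 on the minus strand (Elavl3) and chr2:79456587-79456886 on the minus strand (Neurod1).
Dcx: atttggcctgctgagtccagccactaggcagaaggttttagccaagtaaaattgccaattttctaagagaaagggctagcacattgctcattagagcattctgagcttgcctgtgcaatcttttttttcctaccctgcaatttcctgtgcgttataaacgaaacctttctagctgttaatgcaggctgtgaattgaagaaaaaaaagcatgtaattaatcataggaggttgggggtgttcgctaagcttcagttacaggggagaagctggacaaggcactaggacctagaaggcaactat
Tubb3: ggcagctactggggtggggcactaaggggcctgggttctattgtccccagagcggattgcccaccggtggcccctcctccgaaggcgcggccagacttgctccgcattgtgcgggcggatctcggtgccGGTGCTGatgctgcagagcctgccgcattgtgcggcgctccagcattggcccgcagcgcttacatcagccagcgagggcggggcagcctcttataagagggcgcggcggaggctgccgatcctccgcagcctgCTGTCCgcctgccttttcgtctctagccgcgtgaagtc
Elavl3: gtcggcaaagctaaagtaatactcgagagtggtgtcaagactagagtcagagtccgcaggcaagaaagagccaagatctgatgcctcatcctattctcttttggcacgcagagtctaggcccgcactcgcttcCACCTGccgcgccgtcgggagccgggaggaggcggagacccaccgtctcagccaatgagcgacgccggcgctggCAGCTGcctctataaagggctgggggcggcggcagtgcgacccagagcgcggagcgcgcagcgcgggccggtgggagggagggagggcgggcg
Neurod1: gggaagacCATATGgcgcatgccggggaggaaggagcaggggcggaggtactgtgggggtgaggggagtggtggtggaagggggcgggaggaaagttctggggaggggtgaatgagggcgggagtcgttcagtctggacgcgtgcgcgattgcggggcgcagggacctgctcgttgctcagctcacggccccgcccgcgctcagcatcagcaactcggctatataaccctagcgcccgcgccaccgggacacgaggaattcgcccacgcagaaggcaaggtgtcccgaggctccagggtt

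The Dcx window held no copy of any of the 3 motifs. The Tubb3 window held GGTGCTG, the reverse complement of CAGCACC, 121 bases before the start and CTGTCC, the reverse complement of GGACAG, 12 bases after it. The Elavl3 window held the E-boxes CACCTG, 117 bases before the start, and CAGCTG, 43 bases before it, and the Neurod1 window held the E-box CATATG 242 bases before the start. These letters are common: of all 32851 mouse promoter windows of this length, 72.3% held CANNTG, 7.14% held CAGCACC and 22.2% held GGACAG. The matches are a description of the sequence and say nothing of binding. The promoter table had windows for 9 of the 10 members; Stmn2 was not among them.

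Dcx, a microtubule-binding protein of migrating young neurons, differed the most among the tested members. It lies on the minus strand of chromosome X at 143855842-143933311 (mm10, as are all gene positions here). The HT libraries MR25, MR26, MR27, MR28R, MR29 and MR30 had 34.2, 24.7, 39.2, 49.2, 40.5 and 30.1 normalized counts, and the pSHF libraries MR13 to MR18 had 1325, 1088, 1512, 1220, 1239 and 1311. Every HT library was far below every pSHF library, and libraries are named in these orders throughout. The means were 36.3 ± 8.59 in HT and 1283 ± 141 in pSHF (SD, n = 6 each), a ratio of 35.3 in favour of pSHF. The limma log2 fold change was -5.13 (SE 0.14, adjusted p = 7.1e-14).

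Stmn2, a stathmin that loosens microtubules in growing axons, lies on the plus strand of chromosome 3 at 8509360-8561606. It had 67.2, 56.2, 55.4, 63.3, 47.7 and 55.5 normalized counts in the HT libraries and 186, 218, 329, 265, 205 and 315 in the pSHF libraries. The groups did not overlap, and MR15 and MR18 were the highest of the pSHF libraries. The means were 57.6 ± 6.84 in HT and 253 ± 59.8 in pSHF (SD, n = 6 each), and the log2FC was -2.09 (SE 0.15, limma adjusted p = 3.0e-09).

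Elavl3 and Elavl4 code for the Hu proteins HuC and HuD, which bind AU-rich elements in the mRNAs of neurons. Elavl3 (chromosome 9, 22015005-22052023, minus strand) had 24.9, 38.7, 31.9, 26.4, 22.7 and 25.1 normalized counts in the HT libraries and 56.5, 78.7, 183, 98.1, 89.6 and 101.8 in the pSHF libraries. Its groups did not overlap, and MR15 stood at 2.04 times the median of the other pSHF libraries. The Elavl3 means were 28.3 ± 5.97 in HT and 101.2 ± 43.1 in pSHF (SD, n = 6 each), with a log2FC of -1.73 (SE 0.23, limma adjusted p = 5.1e-06). Without MR15 the pSHF mean of Elavl3 was 84.9 ± 18.2, the log2 fold change was -1.55 and the limma adjusted p was 3.2e-06. The deposited annotation does not show how reads shared with Gm49318 were counted, a gene whose exons overlap those of Elavl3 on the same strand over 256 bases.

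Elavl4 (chromosome 4, 110203722-110351909, minus strand) had 98.8, 87.3, 65.1, 69.6, 71.9 and 87.3 normalized counts in the HT libraries and 197, 134, 238, 179.7, 145 and 166 in the pSHF libraries. No HT library reached the lowest pSHF library, MR14. The means were 80.0 ± 13.1 in HT and 177 ± 37.8 in pSHF (SD, n = 6 each), and the log2FC was -1.12 (SE 0.15, limma adjusted p = 4.0e-06). The groups of Dcx, Stmn2, Elavl3 and Elavl4, 4 of the 6 tested members, did not overlap, with pSHF higher, which was so for 30.3% of all genes tested.

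Tubb3, the beta tubulin used as a general neuronal marker, differed less. It lies on the plus strand of chromosome 8 at 123411424-123422015. It had 347, 348, 381, 422, 408 and 406 normalized counts in the HT libraries and 443, 402, 799, 532, 425 and 607 in the pSHF libraries. The groups overlapped: MR14 of pSHF lay below 3 of the HT libraries, and MR15 stood at 1.80 times the median of the other pSHF libraries. The means were 385 ± 32.2 in HT and 535 ± 150.2 in pSHF (SD, n = 6 each), with a log2FC of -0.43 (SE 0.14, limma adjusted p = 0.0104). Without MR15 the pSHF mean of Tubb3 was 482 ± 85.3 and the log2 fold change was -0.31, with a limma adjusted p of 0.0135.

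Nes lies on the plus strand of chromosome 3 at 87971078-87980451 and had the smallest difference of the tested members. Its HT libraries had 4194, 4137, 4503, 4080, 4268 and 3623 normalized counts and its pSHF libraries had 3955, 4748, 5074, 4848, 4967 and 4727. The groups overlapped, through MR13 of pSHF, which lay below 5 of the HT libraries. The means were 4134 ± 290.3 in HT and 4719.7 ± 397 in pSHF (SD, n = 6 each), and the log2FC was -0.19 (SE 0.06, limma adjusted p = 0.00987).

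**Figure D1:**
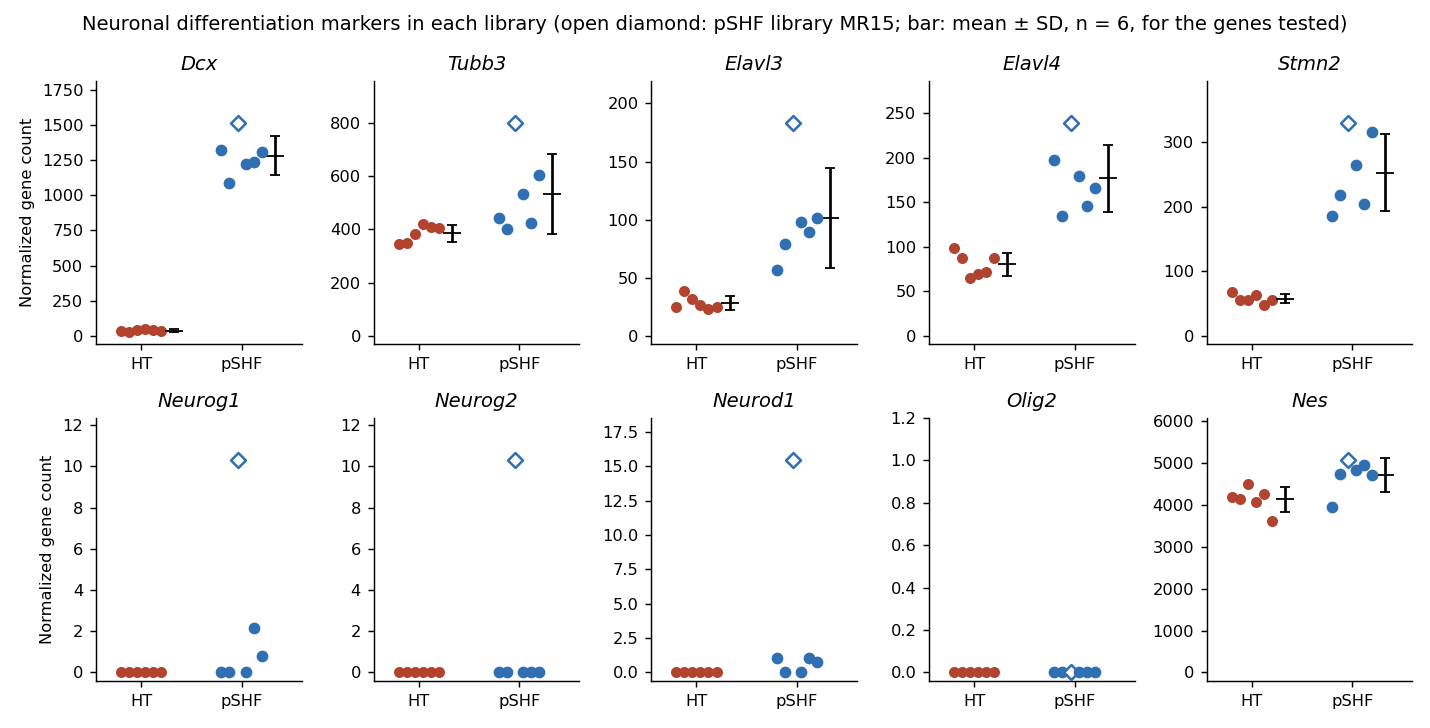
Normalized gene counts (y axis, linear, from 0) of the members in the HT libraries (left) and the pSHF libraries (right), 1 point per library, with the mean ± SD (n = 6) for the tested genes. Dcx, Stmn2, Elavl3 and Elavl4 show no overlap between tissues, Tubb3 and Nes overlap, and for Neurog1, Neurog2 and Neurod1 the 1 high point is the pSHF library MR15, at 10.3, 10.3 and 15.4.

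The proneural factors were close to the limit of detection. Neurog1 (chromosome 13, 56250478-56252163, minus strand) was at 0 in all 6 HT libraries and had 0, 0, 10.3, 0, 2.16 and 0.789 normalized counts in the pSHF libraries. Neurog2 (chromosome 3, 127633135-127635631, plus strand) was at 0 in all 6 HT libraries and had 10.3 in MR15, with 0 in the other pSHF libraries. All of the Neurog2 signal and most of the Neurog1 signal therefore lay in 1 library. Divided by the value of 1 read in each library, these came to about 15 reads of Neurog1 over the pSHF libraries, 12 of them in MR15, and about 12 reads of Neurog2. Neurod1 (chromosome 2, 79452521-79456751, minus strand), a bHLH factor of differentiating neurons and of endocrine cells, was at 0 in all 6 HT libraries and had 1.07, 0, 15.4, 0, 1.08 and 0.789 in the pSHF libraries. That was about 21 reads, 18 of them in MR15. Olig2 (chromosome 16, 91225457-91228677, plus strand) was at 0 in all 12 libraries.

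A value of 0 is a limit and not an absence: 3 reads, the count that a 0 allows, correspond to 2.93 to 3.58 normalized counts in the HT libraries and 2.37 to 3.24 in the pSHF libraries, for counting error only. These 4 genes had means under 5 normalized counts over the 12 libraries and were not tested with the others. With no filter on low values, the limma adjusted p was 0.0936 for Neurog1, 0.339 for Neurog2 and 0.0676 for Neurod1. In the authors' deposited table the adjusted p was 0.146 for Neurog1, 0.388 for Neurog2 and 0.0514 for Neurod1. No difference between HT and pSHF was therefore detectable for these 3 genes at this depth. Part of the Neurod1 exons is shared with Cerkl on the same strand (201 bases) and with Gm26755 on the other strand (154 bases).

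Set side by side per kilobase of exon, the 2 tissues ranked the members differently. In HT, Nes had 644 ± 45.2 normalized counts per kilobase, Tubb3 206 ± 17.2, Elavl4 14.9 ± 2.42, Stmn2 10.3 ± 1.22, Elavl3 4.10 ± 0.866 and Dcx 2.87 ± 0.679 (SD, n = 6). Dcx was thus the lowest of the tested members in HT, although its libraries overlapped those of Elavl3, and no other neighbours in that order overlapped. In pSHF, Nes had 736 ± 61.9 normalized counts per kilobase, Tubb3 286 ± 80.4, Dcx 101.4 ± 11.1, Stmn2 45.2 ± 10.7, Elavl4 32.8 ± 7.01 and Elavl3 14.7 ± 6.26 (SD, n = 6). Dcx came just after Nes and Tubb3 there, with no overlap with Tubb3 above it or Stmn2 below it, while Stmn2 overlapped Elavl4 and Elavl4 overlapped Elavl3. Below them in pSHF came Neurog1 at 1.31, Neurod1 at 1.12 and Neurog2 at 0.771 normalized counts per kilobase, whose libraries overlapped one another.

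Every member with any signal in pSHF, 9 of 9, had its highest pSHF value in the library MR15. Neurog1, Neurog2 and Neurod1 among them did not pass the filter. Of the tested members, 6 of 6 had their highest pSHF value in MR15, as did 15.3% of all 14909 genes tested. The members were raised there by unequal amounts: MR15 over the median of the other 5 pSHF libraries was 2.04 for Elavl3, 1.80 for Tubb3, 1.51 for Stmn2, 1.43 for Elavl4, 1.22 for Dcx and 1.07 for Nes. The spread over the pSHF libraries followed, with a coefficient of variation of 42.6% for Elavl3 and 28.1% for Tubb3 in pSHF, against 21.1% and 8.36% in HT. Dcx went the other way, at 10.96% in pSHF, against 23.7% in HT where its counts are low. MR15 was not apart in all genes, since 178 genes (1.19% of those tested) stood at 2 or more times the median of the other pSHF libraries in it, and 0.765 to 1.09% did in each of the other 5. For Tubb3, Elavl3 and Stmn2 the next highest pSHF libraries were MR18 and then MR16.

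Some other genes were also high in MR15. In genes chosen after their values were seen, MR15 had 270 normalized counts of Zic1, a factor of the dorsal neural tube and somites. The other pSHF libraries had 0.765 to 12.1 of Zic1, the highest of them MR18, and the HT libraries had 0 to 15.1. Uncx, a factor of the caudal part of each somite, was at 0 in every HT library, and it had 77.5 normalized counts in MR15, 24.2 in MR18 and 15.6 in MR16. Pax9, a factor of the sclerotome and pharyngeal endoderm, had 199.9 in MR15 and 40.4 in MR18, the next highest pSHF library. Zic1, Uncx and Pax9 had the same 3 highest libraries, in the same order, as Tubb3, Elavl3 and Stmn2. The order was not shared by all members: after MR15 came MR13 for Dcx and Elavl4, and MR17 for Nes. Nor was it shared by the bHLH factors Neurod4 and Nhlh1, also highest in MR15, for which MR14 came next.

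Pax7, a factor of dorsal neural tube and muscle precursors in the progenitor list, had 52.8 in MR18 and 48.6 in MR15. Over the whole list of 10 somite and skeletal muscle markers, 1 (Tbx18) was higher in HT and 8 were higher in pSHF by limma, 7 of these having passed the filter through pSHF alone, and 8 had their highest pSHF value in MR15. Their summed level was 2250 to 2748 normalized counts in HT and 1891 to 3407 in pSHF, with MR15 at 3407 and the next pSHF library at 2759. Nearly all of the HT sum came from Tbx18 (mean 2109 in HT and 1330 in pSHF) and from Meox1 (290 in HT and 274 in pSHF, not called). Pax1 (log2 fold change -7.64) and Meox2 (-6.48) differed the most, and Myod1 and Uncx were at 0 in all HT libraries. The part of these cells in the members' values was not tested. With MR15 left out, all 6 tested members were still called higher in pSHF.

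**Figure D2:**
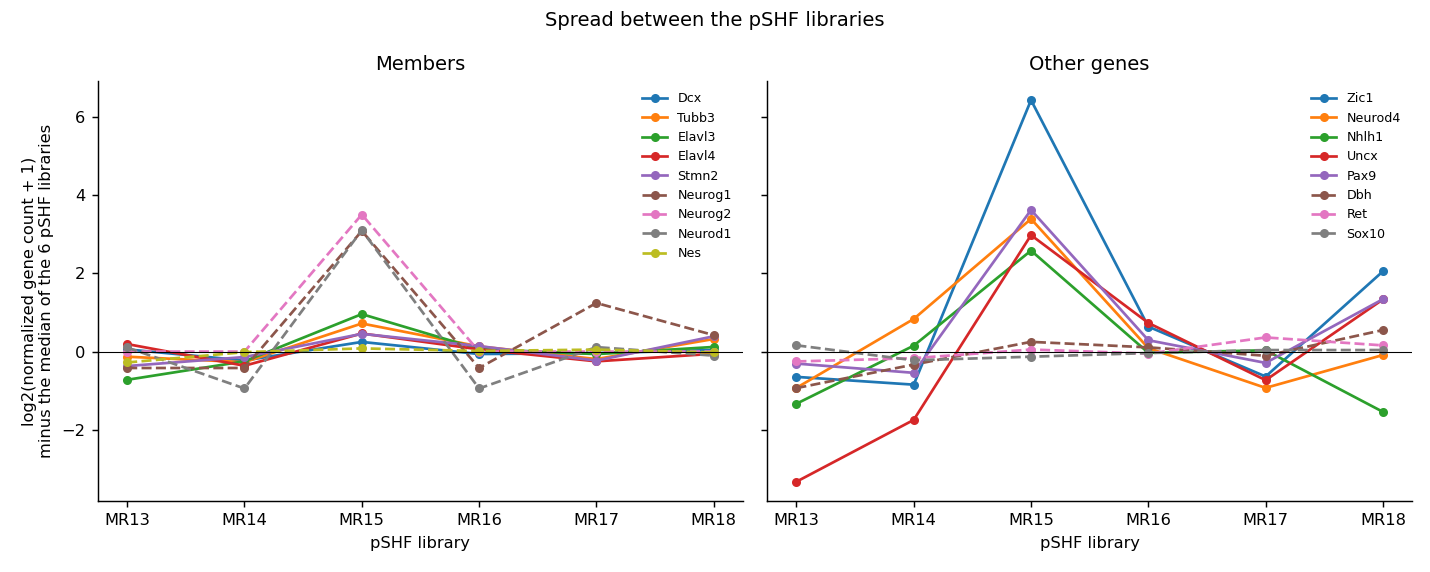
Log2(normalized gene count + 1) minus its median over the 6 pSHF libraries (y axis) in each pSHF library (x axis), for the 9 members with signal (left) and for other genes (right), 1 line per gene. The library MR15 is the highest for the members and for Zic1, Uncx, Pax9, Neurod4 and Nhlh1, while Dbh is highest in MR18, Ret in MR17 and Sox10 in MR13.

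Genes of peripheral neurons were lower in HT as well. Of 16 genes of peripheral, autonomic and cranial ganglion neurons, all were tested, 0 were called higher in HT, 15 were called higher in pSHF, and Pou4f1 was not called (adjusted p = 0.320). The median log2 fold change of this list was -3.80, or -3.14 with Tlx2, which was at 0 in all HT libraries, set at 3 reads per HT library. Ret, the receptor for GDNF-family ligands on enteric and autonomic precursors, averaged 5.79 ± 3.73 normalized counts in HT and 619 ± 98.3 in pSHF (SD, n = 6 each; log2FC -6.70, limma adjusted p = 3.0e-11). The smallest differences past the threshold in the list were those of Gfra2, a co-receptor of Ret (33.1 ± 4.29 in HT and 123 ± 15.1 in pSHF, log2FC -1.87), and Isl1, a factor of sensory and motor neurons and also of the second heart field itself (115 ± 24.5 in HT and 472 ± 46.0 in pSHF, log2FC -2.05). For 4 of the 15 called, the HT mean was under 5, so that they passed the filter through pSHF alone, which fixes their direction. MR15 was the highest pSHF library for 4 of these 16 genes and MR18 for 7. It was the highest for 11 of 21 pan-neuronal genes, 6 of 13 synapse genes and 5 of 11 neural progenitor factors of the lists below. Dbh, the enzyme that makes noradrenaline, was highest in MR18 (685 normalized counts), MR15 (555) and MR16 (504), in that order, and lowest in MR13 (245); whether the lists differ in this was not tested.

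Of 10 neural crest and glia markers tested, 1 (Ednrb) was higher in HT and 9 were higher in pSHF. The summed level of the list was 7076 to 8509 normalized counts in HT and 10398 to 11125 in pSHF, with MR15 at 10943. Most of the HT sum came from Ets1 (mean 2839 in HT and 4788 in pSHF) and from Ednrb (2652 in HT and 1089 in pSHF). None of the list was at 0 in a whole tissue. Sox10, the factor of crest and glia, averaged 9.66 ± 2.55 in HT and 447 ± 41.9 in pSHF (log2FC -5.42). All 10 markers of foregut endoderm were higher in pSHF too, with a sum of 1204 to 1749 in HT and 5382 to 6721 in pSHF, with MR15 at 5621. Tfap2b (-6.94) and Foxd3 (-6.14) had the lowest log2 fold changes of the crest list and Erbb3 (-0.34) the one nearest to 0, while in the endoderm list they were Nkx2-1 (-8.99) and Foxa1 (-7.52), with Krt8 (-0.28) nearest to 0. The filter was passed through pSHF alone by 2 of the 9 crest genes and 4 of the 10 endoderm genes called. The part of crest and endoderm in the members' differences was not tested.

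Of the 13 bHLH factors set beside the members, 6 were at 0 in every library (Neurog3, Neurod2, Neurod6, Atoh1, Atoh7 and Ptf1a), and 3, Bhlhe22 and Nhlh2 among them, passed the filter. These 3 passed it through their pSHF values alone, which fixes their direction, and were called higher in pSHF, with a median log2 fold change of -2.72. Without MR15 the count higher in pSHF was 1 of 1 tested, because the means of Bhlhe22 (4.18 normalized counts) and Nhlh2 (4.14) over the other 11 libraries were under the minimum of 5. Bhlhe22 averaged 1.61 in HT and 7.26 in those pSHF libraries. Nhlh2, a bHLH factor of young neurons, averaged 0.912 ± 1.08 in HT and 13.1 ± 12.9 in pSHF, where MR15 had 38.6 and the others averaged 8.02.

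The genes of lateral inhibition and the neural transcription factors grouped with them split. Of 7 tested, 3 were called higher in HT (Dll1, Dll4 and Hes6) and 4 higher in pSHF (Insm1, Dll3, Mfng and Rest, of which Insm1 and Dll3 passed the filter through pSHF alone), with a median log2 fold change of -0.60. Dll1, a Notch ligand of neural and presomitic cells and of arterial endothelium, averaged 341 ± 68.8 in HT and 137 ± 15.7 in pSHF (log2FC 1.30, limma adjusted p = 1.5e-07). Insm1, a zinc-finger factor of neuronal and endocrine precursors, averaged 0.838 ± 0.970 in HT and 64.1 ± 10.3 in pSHF (log2FC -5.31). With libraries scaled to equal totals, Dll4 (log2 fold change 0.12, adjusted p = 0.248) and Hes6 (0.10, adjusted p = 0.0775) were no longer called, and 1 gene of the list was higher in HT. Rest, the repressor whose element was searched for above, averaged 2575 ± 107 in HT and 3907 ± 98.5 in pSHF (log2FC -0.60).

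Of 11 tested factors of neural progenitors, the class to which Nes belongs as a marker, 1 was called higher in HT and 8 higher in pSHF, with a median log2 fold change of -2.39; 4 of the 8 passed the filter through pSHF alone, and Pax6 (adjusted p = 0.390) and Zic1 (0.189) were not called. The exception was Sox3, a SoxB1 factor of neural progenitors, with 156 ± 16.7 normalized counts in HT and 3.84 ± 1.46 in pSHF (log2FC 5.06). Sox3 passed the filter through HT alone, which fixes its direction. Nkx6-1, a factor of ventral neural tube and pancreas, was at 0 in all HT libraries and averaged 438 ± 63.5 in pSHF. Pax3, a factor of dorsal neural tube, crest and muscle precursors, averaged 0.417 ± 0.651 in HT and 41.2 ± 34.6 in pSHF, where MR15 had 108. Irx3, a factor of the neural tube and other tissues, differed less, at 359 ± 34.9 in HT and 645 ± 70.9 in pSHF (log2FC -0.84).

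The pan-neuronal genes that stand beside Dcx, Tubb3 and Stmn2 did not all move one way. Of 21 genes of the neuronal cytoskeleton and growth cone, all tested, 4 were called higher in HT, 14 higher in pSHF and 3 neither, with a median log2 fold change of -0.87. Of the 14 higher in pSHF, 1 (Ina) passed the filter through pSHF alone, which fixes its direction. Ina, the neuronal intermediate filament internexin, averaged 1.54 ± 1.36 in HT and 106.1 ± 66.5 in pSHF (log2FC -5.44), and the neurofilament Nefm 74.4 ± 12.3 in HT and 1345 ± 223 in pSHF (-4.16). Dpysl3, a collapsin response mediator of growth cones, went against them, with a log2 fold change of 1.44 (17071 ± 1032 in HT, 6320 ± 496 in pSHF), as did Stmn4 (141 ± 19.96 in HT and 66.1 ± 9.25 in pSHF, 1.09), Map1b (7636 ± 616 in HT and 4684 ± 745 in pSHF, 0.72) and Nefh (32.1 ± 9.70 in HT and 19.2 ± 5.55 in pSHF, 0.72). The call of Nefh was lost with libraries scaled to equal totals (log2 fold change 0.48, adjusted p = 0.0757).

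Close relatives of single members also went in both directions. Stmn1, the widely expressed stathmin, averaged 4595 ± 307 in HT and 8991 ± 427 in pSHF (log2FC -0.97). Among the beta tubulins, Tubb6 (2015 ± 125 in HT and 949 ± 25.3 in pSHF, log2FC 1.08) and Tubb4b (9527 ± 1115 in HT and 5819 ± 239 in pSHF, 0.70) had higher values in the heart tube, while Tubb2a (1526 ± 100.5 in HT and 1720 ± 50.2 in pSHF, -0.17) was lower in HT, as Tubb3 was. Of the 5 stathmins and tubulins of this list, 2 were called higher in HT and 3 higher in pSHF, with a median log2 fold change of -0.13. The 3 filament genes set beside Nes were all called with HT higher, and their median log2 fold change was 2.26. Desmin (Des), the muscle filament, had 18646 ± 1502 in HT and 1285 ± 209 in pSHF (3.87), synemin (Synm) 988 ± 101 in HT and 208 ± 44.0 in pSHF (2.26), and vimentin (Vim) 24868 ± 1733 in HT and 12396 ± 649 in pSHF (1.00). Nes had the opposite direction.

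Among 8 RNA-binding proteins of neurons beside Elavl3 and Elavl4, 1 was called higher in HT and 7 higher in pSHF, with a median log2 fold change of -1.14. Celf3 averaged 6.55 ± 2.90 in HT and 107 ± 30.6 in pSHF (log2FC -3.91), and Celf5 8.49 ± 1.73 in HT and 43.0 ± 8.52 in pSHF (-2.21). Nova2, a splicing regulator of neurons, had the smallest difference past the threshold, at 207 ± 24.2 in HT and 282 ± 40.0 in pSHF (-0.44). Srrm4, a splicing factor of neuronal microexons, was the exception at 116 ± 15.2 in HT and 55.7 ± 9.37 in pSHF (1.05). Of 13 synapse and vesicle genes, 3 were called higher in HT, 9 higher in pSHF (4 of them through pSHF alone at the filter) and Snap25 neither (adjusted p = 0.501), with a median log2 fold change of -1.34. The chromogranins Chga (1.96 ± 0.723 in HT and 76.7 ± 25.5 in pSHF, -4.67) and Chgb (4.84 ± 2.04 in HT and 104 ± 36.5 in pSHF, -4.15) of secretory granules differed the most. Rab3a (0.56) and Vamp2 (0.27) of the exocytosis machinery were among the 3 higher in HT, and the call of Vamp2 was lost with equal totals (log2 fold change 0.02, adjusted p = 0.665).

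Genes of spinal motor neurons, the neurons whose progenitors Olig2 marks, followed the same direction. Of 5 tested, 0 were called higher in HT and 5 higher in pSHF, with a median log2 fold change of -2.21, and without MR15 the count higher in pSHF was 3. Mnx1 and Slc18a3 passed the filter through pSHF alone, which fixes their direction. Mnx1, a motor neuron factor that is also made in foregut and notochord, was at 0 in all HT libraries and averaged 20.6 ± 7.71 in pSHF. Slc18a3, the vesicular acetylcholine transporter, averaged 0.368 ± 0.570 in HT and 25.7 ± 12.5 in pSHF (log2FC -4.22). Lhx3 (adjusted p = 0.0235) and Slc5a7 (adjusted p = 0.0438) lost their calls without MR15: the log2 fold change of Lhx3 was -0.70 (limma adjusted p = 0.0518) in place of -0.77, and that of Slc5a7 was -0.41 (limma adjusted p = 0.106) in place of -0.51. The sum of the list was 20.1 to 45.1 in HT and 105.1 to 195 in pSHF, with MR15 at 195.

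**Figure D3:**
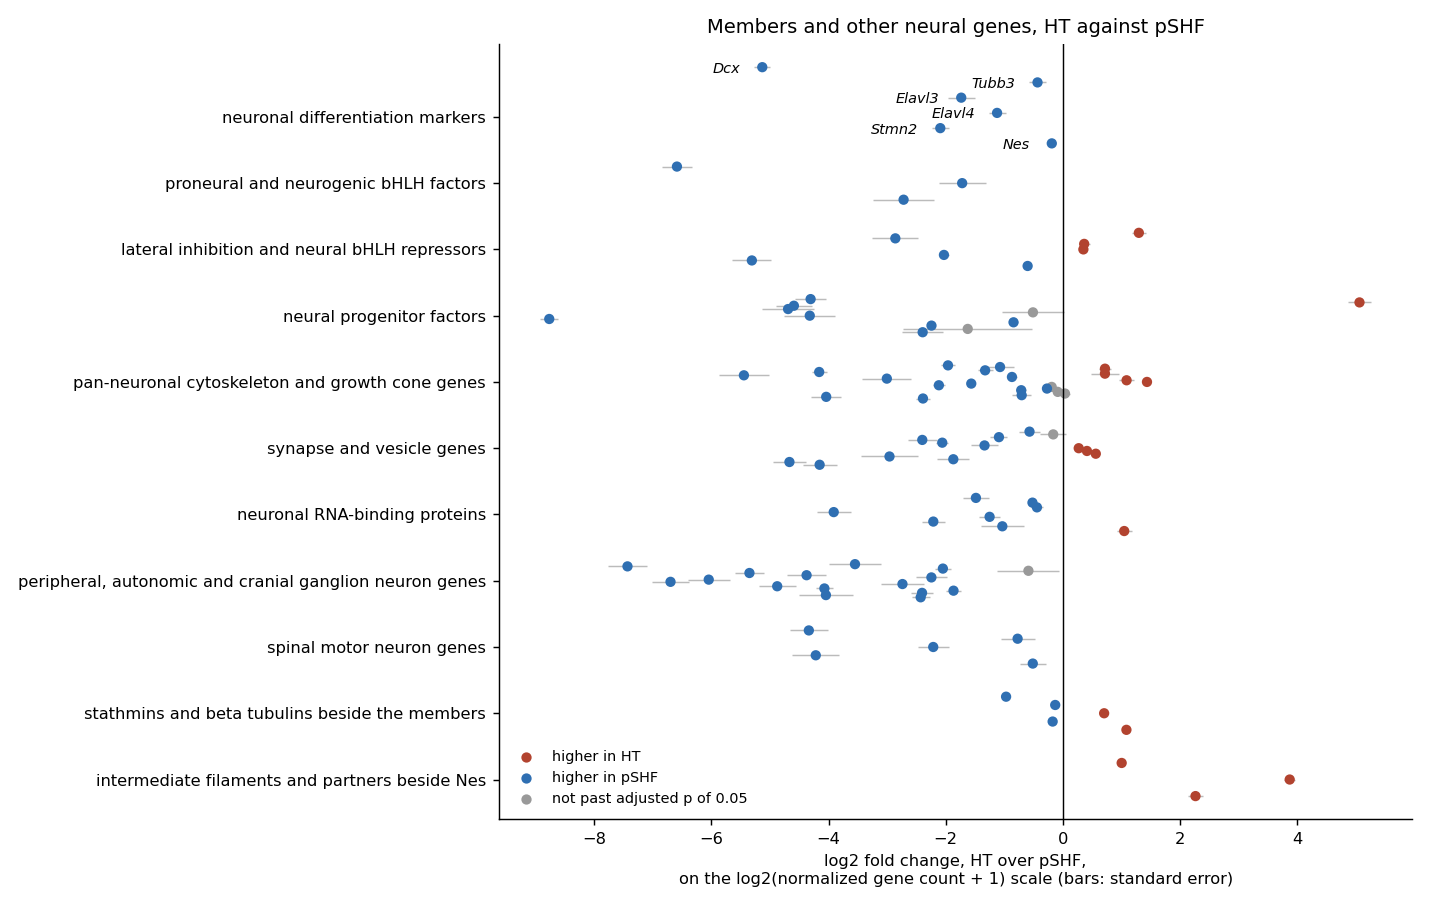
Log2 fold change, HT over pSHF, on the log2(normalized gene count + 1) scale (x axis) for each tested member and each tested gene of the neural lists (rows), with the standard error; red points passed the limma threshold with HT higher, blue points with pSHF higher and grey points did not pass. All 6 members lie left of 0, while the pan-neuronal list holds 4 genes to the right; points for Nkx6-1, Tlx2 and Mnx1, at 0 in all HT libraries, depend on the added count of 1.

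The genes most like a member over the 12 libraries were taken as the 3 with the smallest root mean square difference of the centred log2(normalized gene count + 1) values, among all genes tested. For Dcx these were Exph5 (difference 0.286), Havcr1 (0.320) and Sox10 (0.341). Havcr1 was at 0 in all HT libraries and averaged 35.0 normalized counts in pSHF, so its difference depends on the added count of 1. For Stmn2 they were Dclk1, a kinase with doublecortin domains (0.149), Col26a1 (0.174) and Ptx3 (0.174). Elavl3 was nearest to Apc2, an APC homologue of the nervous system (0.207), Scg3, a secretogranin (0.283), and Phyhipl (0.310). Elavl4 was nearest to Srpx (0.142), Lrp1 (0.192) and Rbm4b (0.195), and Tubb3 to Pknox2 (0.160), Abhd6 (0.187) and Kif24 (0.197). Apc2 had 58.4 normalized counts in HT and 221 in pSHF, with 389 in MR15, a likeness that the choice of nearest genes uses.

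A second table of the authors held raw counts at 1.08 to 1.30% of the depth rebuilt from the normalized values. Most members had few counts in it, and not in a fixed share of their rebuilt reads. Over the 6 pSHF libraries, Dcx had 32 counts for about 8379 rebuilt reads, Tubb3 6 for 3537 and Nes 207 for 30935. Over the 6 HT libraries, Elavl3 had 6 counts for about 157 rebuilt reads and Tubb3 12 for 2154. Why the 2 tables differ in this was not tested. Rebuilt reads numbered between 20634000 and 25645000 per HT library, and between 19090000 and 26287000 per pSHF library. Over the 6 libraries of each tissue, Dcx had 1 count in HT and 32 in pSHF, Elavl4 3 in HT and 10 in pSHF, Stmn2 2 in HT and 2 in pSHF, Elavl3 6 in HT and 2 in pSHF, and Tubb3 12 in HT and 6 in pSHF. Neurog1 had 0 counts in HT and 1 in pSHF, and Neurog2, Neurod1 and Olig2 had 0 counts in both. Nes, with 166 counts in HT and 207 in pSHF, was the 1 member that passed edgeR's filter on low counts, and its log2 fold change was -0.07 (edgeR quasi-likelihood adjusted p = 0.793). The edgeR test thus called 0 members, also at an unadjusted p under 0.05. At an adjusted p under 0.05 it called 48.3% of 3370 genes, 25.2% with HT higher and 23.1% with pSHF higher. DESeq2 on the same counts called 1 member, Dcx (log2 fold change -4.17, adjusted p = 0.00028), as did edgeR with no filter (-4.07, adjusted p = 2.5e-05). With DESeq2, Tubb3 was at 1.21 on the log2 scale (adjusted p = 0.468), and with no filter in edgeR it was at 1.10 (adjusted p = 0.362) and Elavl3 at 1.47 (adjusted p = 0.344), in each case with HT higher and not past the threshold. The authors' deposited table gave log2 fold changes of -5.13 for Dcx, -2.14 for Stmn2, -1.84 for Elavl3, -1.16 for Elavl4, -0.47 for Tubb3 and -0.19 for Nes.

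The tissue labels were checked against other markers. All 10 heart muscle markers were higher in HT, with a sum of 705459 to 859303 normalized counts in HT and 26547 to 59775 in pSHF. All 7 erythroid markers measured were higher in HT, with a sum of 345072 to 1551620 in HT and 62381 to 124149 in pSHF, and these genes take a share of each library that differs between tissues. Of 9 endothelial markers 8 were higher in HT and 1 (Cldn5) in pSHF, and of 5 epicardial markers 2 were higher in each tissue. With libraries scaled to equal totals, the median log2 fold change of all genes was -0.26 in place of -0.02, and Tubb3 (-0.68) and Nes (-0.44) moved with it; all 6 tested members stayed lower in HT.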

How the data were processed

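Poly-A RNA of 6 HT and 6 pSHF samples was sequenced. Per the labels' protocols the kit was TruSeq RNA version 2, which by design does not mark strand, although the protocol calls the reads stranded. The submitters' processing notes name STAR, DESeq2 and the build mm10. Not given in the sources used here were versions, gene annotation and the program that counted reads. The authors deposited raw counts for 23324 symbols (233865 to 340434 counts per library) and a comparison table with, per the file headers, a log2 fold change, its standard error, a test score, a p-value and an adjusted p-value for each gene. That table also holds a deposited signal per library, the normalized gene counts of the report. Of its values below 20.5 reads, 46.5 to 49.4% were whole multiples of 1 read within 0.01 reads, so it was not treated as counts, and rebuilt reads are approximate. Columns name tissue and library code, and libraries were grouped by tissue.

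Computed here: limma 3.58.1 (R 4.3.3, eBayes with trend) on log2(signal + 1), keeping genes whose mean reached 5, and edgeR 4.0.16 (quasi-likelihood, TMM, filterByExpr) on the raw counts, with DESeq2 1.42.0 as an alternative. Both scripts were tested on simulated data. Levels per kilobase use the union of exons in GENCODE M21 for GRCm38, which need not be the authors' annotation. Date-like names of 27 genes were restored through their identifiers, and 21345 identifiers matched the name table. The members and all lists were chosen with earlier results of these data known. Of each list, the text names the 2 largest and 2 smallest log2 fold changes past the threshold. Genes against the majority of their list are named too, and some of all these by symbol only. Heart muscle, erythroid, endothelial and epicardial markers are given by their counts and sums. Zic1, Uncx, Pax9, Rest, Sox10, Dbh, Pax7, Nhlh1, Neurod4, Meox1 and Ets1 were named after their values were seen. Some genes of these lists are counted but not reported singly here.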

Additional observations from a re-analysis of the deposited data

Results flagged for a closer look

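Of the genes named here, 71 were checked in 2 tissues, without most of the cell type markers and some others. Of these 142 groups of 6 libraries, 22 held a library far from the others by Dixon's criterion. In 16 of the 22 it was the pSHF library MR15. Chance gives about 1 in 20 groups, but the genes include some named because MR15 was high in them or for likeness to a member, and some with almost only zeros, so the count is a description and no test. Among the members, MR15 stood high for Elavl3 (182.8 normalized counts), Neurog1 (10.3), Neurog2 (10.3) and Neurod1 (15.4), and the pSHF library MR13 stood low for Nes (3955). The cause was not tested.

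Among the other genes, MR15 stood high in pSHF for the bHLH factors Neurod4 (18.9), Nhlh1 (30.0) and Nhlh2 (38.6), for Hes6 (588), Pax3 (108) and Zic1 (270), for Uncx (77.5) and Pax9 (199.9), and for Ina (235), Slc5a7 (33.5), Apc2 (389) and Pknox2 (541). MR13 stood high in pSHF for Stmn1 (9800) and Tubb4b (6291), and MR17 stood low for Stmn4 (48.3). In HT, MR30 stood low for Map1b (6429) and MR29 stood high for Zic1 (15.1).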

How the results depend on the processing

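All 6 tested members kept their direction and their call under each of the 19 alternatives run on the normalized values (other pseudocounts and filters, equal library totals with and without erythroid and heart muscle genes, limma without trend, and each library left out in turn). Log2 fold changes ranged from -5.37 to -4.98 for Dcx, -2.34 to -2.01 for Stmn2, -1.97 to -1.55 for Elavl3, -1.37 to -1.03 for Elavl4, -0.68 to -0.31 for Tubb3 and -0.44 to -0.15 for Nes; the highest adjusted p was 0.0255 for Tubb3 and 0.0258 for Nes. On the raw counts, 1 member (Dcx) was called with DESeq2 and 1 without a filter, against 0 with edgeR and its filter. Most members had few raw counts, and Tubb3 (12 in HT, 6 in pSHF) and Elavl3 (6 and 2) had more in HT. Why the raw and normalized values differ was not tested. With equal totals 1 lateral inhibition gene was higher in HT, against 3. Without MR15, 1 bHLH gene and 3 motor neuron genes were called higher in pSHF, against 3 and 5; these list counts were chosen after seeing the data. The bHLH count fell because 2 genes left the test under the filter, and the motor neuron count because Lhx3 and Slc5a7 missed the threshold. On the normalized values, 65 of the genes checked for outlying libraries were also followed through the alternatives. Of 1220 pairs of such a gene and an alternative that fitted it, 1205 kept direction and call. Another 15 kept direction and lost the call, and 0 reversed. No paired analysis was possible because the columns carry library codes and no replicate numbers, although the protocol says that both tissues came from the same embryo.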
